A study of Mus musculus with 12 samples.

Results

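LayerV-VI [18-P] is the larger of the 2 deep-layer neuron types in a single-cell RNA-seq survey of newborn mouse prefrontal cortex, and its members are the 4427 cells, of 36263 in all, that carry this name in the deposited cell table. The name was transferred from a reference atlas, and 3 markers go with it: Fezf2, Bcl11b and Tle4. The study compared mice that carry a germline frameshift in Myt1l on 1 allele (HET) or on both alleles (HOM) with wild-type mice (WT). All animals were C57BL/6J by label, whereas the study's methods name C57BL/6N for the edited zygotes and the first breeding. They were taken at P0, the day of birth. The allele is a CRISPR/Cas9 deletion of 7 bp in exon 6 that leads to a stop codon at residue 78, and it is present in every cell of the body. Prefrontal cortices of 2 animals per genotype were dissociated, fixed in methanol, pooled and run as 1 library of the 5′ droplet assay of 10x Genomics, so there are 3 libraries, each deposited as 4 runs. No table links a cell to an animal. With 1 library per genotype no test between genotypes is possible, and every difference between HET or HOM and WT is a difference between these libraries, with no replicate check. HET, HOM and WT mean here the library that the deposited cell table gives that name. The study's own cell totals pair the same 3 sets of cells with the genotypes in another order, so every direction below rests on the deposited names.

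The neurons of layers V and VI are the first born of the cortical plate and send their axons out of the cortex. Layer V holds subcerebral neurons, which reach the brainstem and spinal cord and depend on FEZF2 and BCL11B, and layer VI holds corticothalamic neurons, which project to the thalamus and are marked by TLE4, FOXP2 and TBR1. Upper-layer neurons project mainly within the cortex. MYT1L is a zinc finger transcription factor found in neurons, which represses genes of other lineages through SIN3 and histone deacetylase complexes.

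LayerV-VI [18-P] cells were shallow. Their median was 888 molecules per cell in the HET library, 975 in the HOM library and 803.5 in the WT library, against 2812, 3475.5 and 1685 in the other deep-layer type, LayerV-VI [12-P]. Cells with at least 2000 molecules numbered 324 in HET, 402 in HOM and 194 in WT. The median share of mitochondrial transcripts was 6.86% in HET, 4.93% in HOM and 6.81% in WT. By Xist and Y-linked transcripts the WT library held cells of both sexes, and in the mutant libraries Xist was found in 2 of all HET cells and 1 of all HOM cells. Xist, the RNA that silences an X chromosome in female cells, was found in 0 of the HET cells, 0 of the HOM cells and 258 of the 1350 WT cells of this type. Sex and genotype can therefore not be told apart except among the cells with a Y-linked transcript, which number 190 in HET, 184 in HOM and 33 in WT. Between any pair of libraries 3 or 4 cells of this type shared a barcode. Levels below are depth-corrected counts summed over the cells of a type in a library, per 1000000 of all genes, and because the deposited values are already corrected for depth no counting interval is given for a gene.

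Of the markers that go with the name, Fezf2 and Tle4 set LayerV-VI [18-P] apart from the other 3 layer types, and Bcl11b did not. Fezf2, on chromosome 14 (GRCm38, 12342094-12348189), is a transcription factor that specifies subcerebral neurons. Its level was 152 in HET, 198 in HOM and 138 in WT cells of LayerV-VI [18-P], against 16.5, 13.7 and 21.5 in LayerV-VI [12-P], 15.6, 14.5 and 17.4 in LayerII-IV [1-P] and 47.2, 54.2 and 41.6 in LayerII-IV [4-P]. Tle4, a corepressor on chromosome 19 (14448150-14598051), was at 376 in HET, 333 in HOM and 418 in WT cells, and at no more than 111 in any other layer type of any library. Among the 18 or 19 types with at least 100 cells in a library, both genes had their highest level in LayerV-VI [18-P] in all 3 libraries. Bcl11b, the transcription factor also called CTIP2, on chromosome 12 (107910403-108003602), was at 256 in HET, 274.5 in HOM and 306 in WT cells, whereas LayerV-VI [12-P] cells had 356, 472 and 461. It ranked 4 in each library, behind LayerV-VI [12-P] and both striatal inhibitory types, whose neurons also use BCL11B.

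Of the 13 layer VI genes, 9 were higher in LayerV-VI [18-P] than in every other layer type in each library. Sox5, which controls the order in which deep-layer neurons are made, was at 333 in HET, 473 in HOM and 345 in WT cells, and the type ranked first for it in every library. Foxp2, a forkhead factor of corticothalamic neurons, was at 142, 211 and 139 in the same order. Syt6, a synaptotagmin of layer VI, was at 234 in HET, 298 in HOM and 155 in WT cells. Hs3st4, a heparan sulfate sulfotransferase used as a corticothalamic marker, was at 147, 209 and 163, and at 26.4 or less in the other layer types. The other 4 were Tbr1, Nfib, Ntsr1 and Garnl3. Tbr1, which layer VI neurons need to form, was at 221 in HET, 245 in HOM and 258 in WT cells of LayerV-VI [18-P], below the 585, 484.5 and 790.4 of LayerV-VI [12-P]. Nfib, a nuclear factor I gene, was at 809 in HET, 982.5 in HOM and 962 in WT cells, below the 1133, 1033 and 1348 of LayerII-IV [1-P]. The 13 layer VI genes summed to a level of 3082 in HET, 3693 in HOM and 3259 in WT cells of LayerV-VI [18-P], and to 910 to 2208 in the other layer types. The 12 layer V genes in the table summed to 1483, 1643 and 1241, and to 506 to 1237 elsewhere. The highest of the other sums were those of the upper-layer type LayerII-IV [4-P], at 1210 in HET, 1237 in HOM and 1161 in WT. In WT the layer V list thus hardly set LayerV-VI [18-P] apart from that type. The markers thus went with the label of a mixed layer V and VI type in part, with Bcl11b and Tbr1 higher in LayerV-VI [12-P]. The name was transferred from the expression of these same cells, so the levels describe the grouping and do not test the name.

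**Figure D1:**
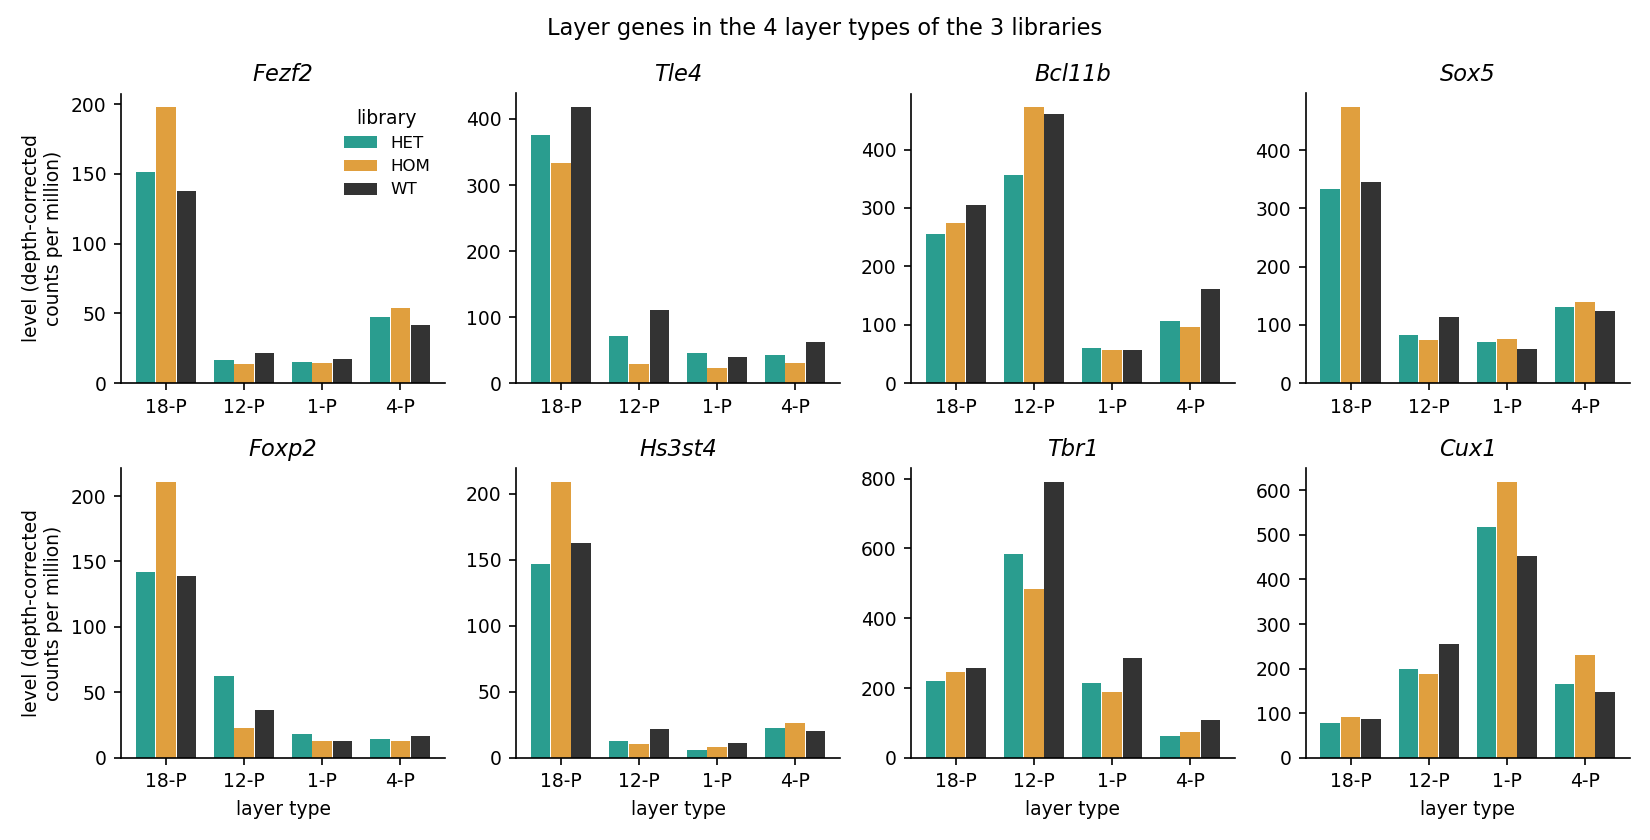
Levels of 8 layer genes (depth-corrected counts per 1000000, linear axes from 0) in LayerV-VI [18-P] and the other 3 layer types, with a bar for each library. Fezf2, Tle4, Sox5, Foxp2 and Hs3st4 stand highest in 18-P in every library, Bcl11b and Tbr1 stand highest in 12-P, and Cux1 is at 78.9 to 91.1 in 18-P against 453 to 619 in 1-P.

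Genes of callosal and upper-layer neurons ran low. Pou3f2, also called BRN2, was at 35.6 in HET, 21.4 in HOM and 46.2 in WT cells, against 441, 399.6 and 456 in LayerII-IV [1-P]. Unc5d, a netrin receptor of migrating upper-layer neurons, was at 11.5, 9.53 and 14.7, against 222, 275.5 and 195. The 11 subplate genes summed to 237 in HET, 288 in HOM and 179 in WT, above their sums of 52.3 to 136 in the other layer types. Without Nxph4 they summed to 179, 174.5 and 137. Of the 11 genes, 5 were higher than in every other layer type in each library and 6 were not. Nxph4 and the nuclear receptor gene Nr4a2 (40.5 in HET, 32.1 in HOM and 32.1 in WT) were among the higher members, and Cplx3 (5.48, 2.38 and 1.34) and Moxd1 (0.55 in HET, listed at 0 in HOM and WT) were the lowest or near it. The 10 microglial genes summed to 58.6 in HET, 88.7 in HOM and 86.4 in WT, within the range of 33.0 to 122 in the other layer types. The 7 endothelial genes summed to 78.9, 81.6 and 62.9, within 33.8 to 140.1 elsewhere.

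Over all 4050 genes compared, 556 (13.7%) were higher in LayerV-VI [18-P] than in each other layer type within each library, 9 ratios per gene, and 253 (6.25%) were lower in all 9. At 2-fold the counts were 41 (1.01%) and 1 (0.0247%). A gene was compared here only where its summed values within LayerV-VI [18-P] reached a minimum. Genes low in this type and high elsewhere could thus drop out. The higher and lower counts can therefore not be weighed against each other. The types were defined from these same genes, so these counts describe the grouping and have no test. The gene with the highest least ratio was Nxph3, a neurexophilin, which is a secreted ligand of neurexins. Nxph3 was at 135 in HET, 201 in HOM and 146 in WT cells, with a log2 ratio of 2.75 or more to every other layer type. Hs3st4 followed with 2.72, then the kainate receptor subunit Grik3 with 2.53, the metalloprotease Adamts18 with 2.21 and the AMPA receptor auxiliary subunit Gsg1l with 2.02. Other genes among the first 15 were the cadherin Cdh9 (2.02), the tissue inhibitor of metalloproteases Timp3 (1.81), the subplate and layer VI neurexophilin Nxph4 (1.78), the GABA-B receptor auxiliary subunit Kctd12 (1.67) and the metabotropic glutamate receptor Grm3 (1.65). Among cells with at least 2000 molecules 14 of these 15 genes kept all 9 ratios above 0, and the receptor tyrosine kinase Kit kept 8.

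At the other end stood Bhlhe22, a transcription factor that controls area identity and axon targeting of projection neurons, at 60.8 in HET, 48.8 in HOM and 70.3 in WT cells against 141.5 or more in the other layer types. Cux1, an upper-layer homeobox gene, was at 78.9, 91.1 and 87.0, and Ptn, which encodes the growth factor pleiotrophin, at 1030, 894 and 797. Ptn was nevertheless abundant, since its lowest level elsewhere was 1169. Of the 10 lowest genes, 9 kept all ratios below 0 in cells with at least 2000 molecules, and Mdk, a relative of Ptn, kept 7 of 9.

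Few single cells showed a given marker. Tle4 was found in 25.9% of HET, 25.5% of HOM and 26.4% of WT cells of LayerV-VI [18-P], Bcl11b in 20.8%, 23.7% and 23.7%, and Fezf2 in 13.1%, 18.2% and 12.7%. At least 1 of the 3 was found in 45.4% of HET, 46.7% of HOM and 48.3% of WT cells. Microglia, which should lack them, showed at least 1 in 10.4%, 8.38% and 12.2% of cells at median depths of 760, 818.5 and 741 molecules, and LayerII-IV [1-P] cells in 10.9%, 8.29% and 9.13%. LayerV-VI [12-P] cells, which were deeper, showed at least 1 in 39.2%, 48.8% and 46.2%. The shares in LayerV-VI [18-P] were above those of microglia and LayerII-IV [1-P] and close to those of LayerV-VI [12-P]. Among cells with at least 2000 molecules the share with at least 1 marker was 80.2% in HET (n = 324), 80.8% in HOM (n = 402) and 87.6% in WT (n = 194). Tle4 and Foxp2 were found together in 29.9% of these deep cells in HET, 34.8% in HOM and 30.9% in WT, where the product of their separate shares was 21.1%, 26.8% and 20.6%. For Bcl11b and Tle4 the share with both was 16.98%, 22.89% and 19.07%, against products of 18.98%, 23.02% and 24.04%. For Fezf2 and Tle4 it was 20.1%, 23.4% and 13.9%, against 17.7%, 20.8% and 16.5%. In deep cells Tle4 and Foxp2 thus lay above the product in each library, and Bcl11b and Tle4 at or below it. Fezf2 and Tle4 lay above it in HET and HOM and below it in WT. Over all cells of the type each of these pairs lay above the product in each library. There Bcl11b and Tle4 were found together in 6.80% of HET, 8.64% of HOM and 7.63% of WT cells, against products of 5.38%, 6.03% and 6.27%. The part of cell depth in these shares was not tested.

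The type was not uniform. The deposited table also gives a Leiden cluster for each cell, and 4 clusters held nearly all of LayerV-VI [18-P]: cluster 7 with 1789 cells (40.4%), cluster 1 with 869 (19.6%), cluster 9 with 863 (19.5%) and cluster 3 with 807 (18.2%). Cluster 7 consisted of this type for 92.3% of its cells and was the deepest of the 4, with a median of 1272 molecules. Cluster 1 had a median of 639 molecules and was shared among many types, with 24.5% of its cells in LayerV-VI [18-P]. Cluster 3 belonged for 60.4% to LayerII-IV [4-P]. The transferred name and the Leiden cluster thus coincided for cluster 7 and parted for clusters 1 and 3. By the study's methods the clusters were made on the same latent space that the name transfer used. Their overlap is therefore no separate check of the name.

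Of the 13 layer VI genes, 10 in HET, 13 in HOM and 9 in WT were highest in cluster 7 among the 4 clusters. The exceptions were all highest in cluster 9: Ntsr1, Grik3 and Garnl3 in HET, and the same 3 with Foxp2 in WT. Within cluster 7 Tle4 was at 680 in HET, 581 in HOM and 707 in WT cells, against 262, 110 and 344 in cluster 9 and 122, 52.5 and 80.8 in cluster 3. Foxp2 was at 246, 375 and 186 in cluster 7, at 113, 117.5 and 219 in cluster 9 and at 49.8, 8.07 and 36.3 in cluster 3. Syt6 was at 425, 509 and 279 in cluster 7, at 170, 159.5 and 93.9 in cluster 1 and at 89.1, 62.6 and 88.8 in cluster 9. Ppp1r1b, which encodes the phosphatase inhibitor DARPP-32, was at 557, 1119 and 333.5 in cluster 7 and at 190.3 or less in the other clusters. Bcl11b was similar in clusters 7 and 3, with 318, 332 and 397 in cluster 7 and 291, 279 and 380 in cluster 3. It was lower in the others, at 200.5, 217 and 188 in cluster 1 and 146, 160.5 and 189 in cluster 9. Cluster 9 had the highest levels of Nxph4 in each library (113, 160.5 and 86.1), of the neuropeptide gene Npy (1307, 2130 and 977) and of the cholecystokinin gene Cck (340.3, 478 and 239). Cluster 7 held 37.2% of the type in HET, 44.8% in HOM and 39.6% in WT, and cluster 9 held 20.1%, 15.6% and 22.9%. Since levels differ this much between clusters, the level of the whole type also depends on the cluster shares, and some results below are set beside single clusters.

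**Figure D2:**
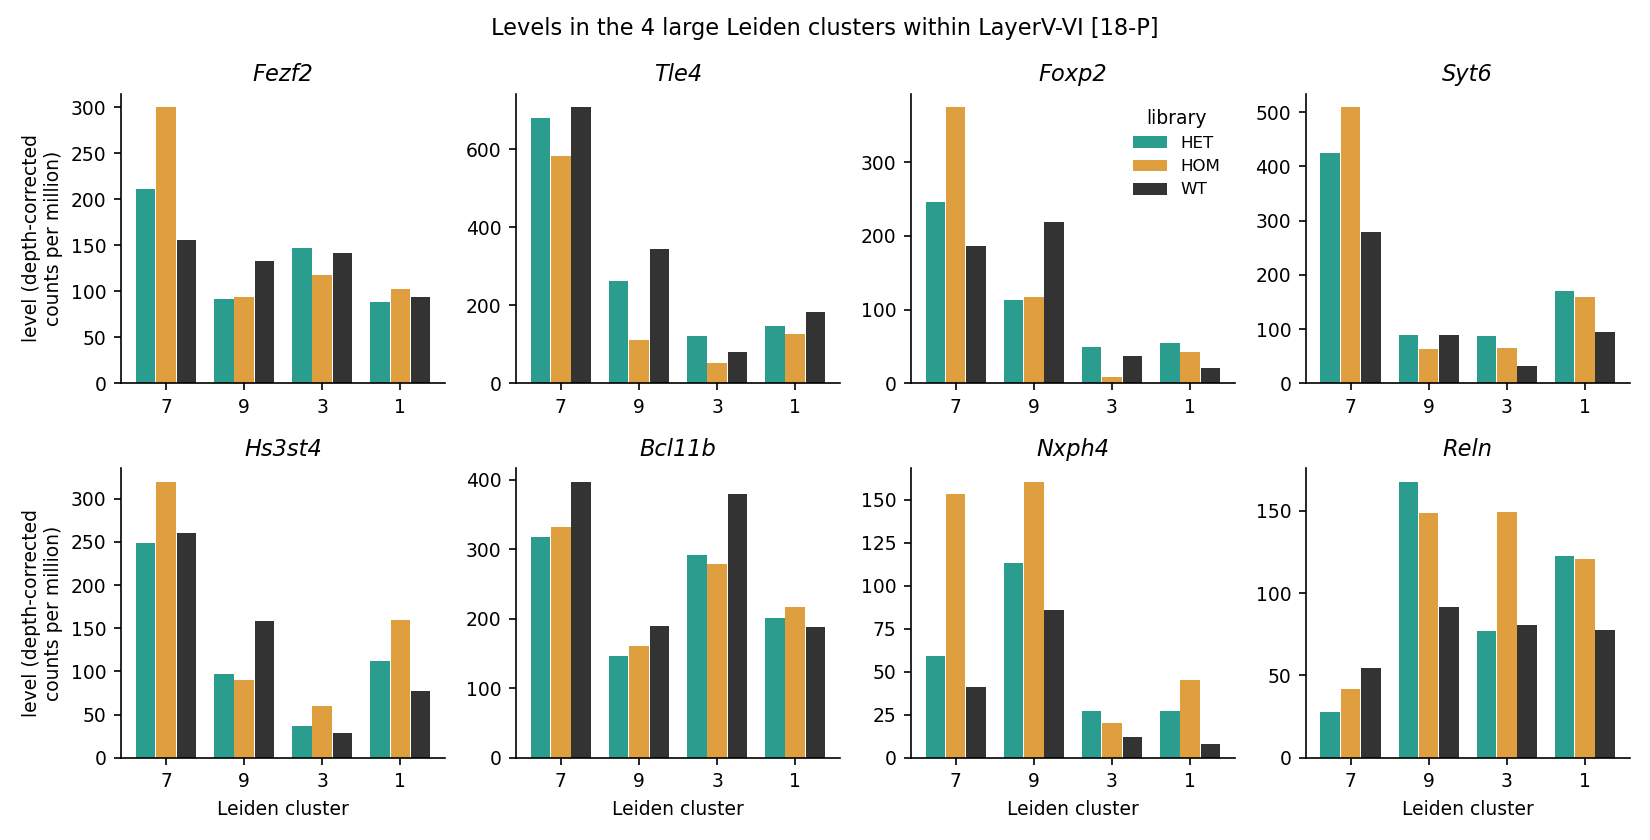
Levels of 8 genes (depth-corrected counts per 1000000, linear axes from 0) in the 4 large Leiden clusters within LayerV-VI [18-P], with a bar for each library. Tle4, Foxp2, Syt6 and Hs3st4 are highest in cluster 7 except Foxp2 in WT, which is at 219 in cluster 9 and 186 in cluster 7, and Nxph4 is highest in cluster 9.

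LayerV-VI [18-P] made up 13.4% of HET cells (1618 of 12072, exact 95% binomial interval 12.8 to 14.0%), 10.7% of HOM cells (1459 of 13688, 10.1 to 11.2%) and 12.9% of WT cells (1350 of 10503, 12.2 to 13.5%). The intervals cover counting error only and leave out differences between animals and dissections. The HOM share was lower than the WT share over all cells. Among the 4 layer types, however, the shares were 31.6% in HET, 31.0% in HOM and 31.4% in WT, and the intervals overlapped. Among cells with at least 2000 molecules the HOM share (6.99%, n = 5748) lay above the WT share (5.29%, n = 3665), as did the HET share (7.54%, n = 4299). No direction for the abundance of this type held across these denominators in HOM. A library with fewer cells of a type cannot be told from a library with more cells of other types.

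Myt1l itself, on chromosome 12 (29528384-29923213, plus strand), was not lower in the mutant libraries. Its level in LayerV-VI [18-P] was 509.9 in HET, 810 in HOM and 371.5 in WT cells, a log2 ratio to WT of 0.46 in HET and of 1.12, past 1.5-fold, in HOM. The same order held in LayerV-VI [12-P] (529.7, 948 and 391) and in the upper-layer types. LayerV-VI [18-P] ranked 7 in HET, 8 in HOM and 7 in WT for Myt1l among the 18 or 19 types compared. In cells with at least 2000 molecules the HOM ratio was 1.11 and the HET ratio 0.13. In its RNA-seq of MYT1L-deficient mice the study found no loss of Myt1l transcript to nonsense-mediated decay. The deletion removes only 7 bases, so the transcript level does not check the genotype of a library. The relatives Myt1 and St18 were near the lower limit, with levels of 8.21 and 0.55 in HET, 2.38 and 1.19 in HOM and 12.7 and 4.02 in WT.

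In HET, 64 of 2885 genes compared (2.22%) were 1.5-fold or more above WT and 103 (3.57%) as far below. In HOM, 158 of 2763 (5.72%) were above and 188 (6.8%) below. These splits moved with the scaling: genes above WT made up 38.3% of those past 1.5-fold in HET and 45.7% in HOM, 64.8% and 56.6% with median-of-ratios scaling, and 26.2% and 33.4% with technical genes left out of the total. Among cells with at least 2000 molecules 65 genes were above and 16 below in HET, of 587 compared, and 158 and 30 in HOM, of 725. Over all cells of the type the same 587 genes gave 10 above and 12 below in HET, and the same 725 gave 64 and 15 in HOM. A gene was compared where its summed values reached 200 over the library and WT. S100a10, which encodes the annexin A2 partner p11 and marks a group of layer V neurons, led in HET and ranked 3 in HOM. Its level was 266 in HET, 363 in HOM and 114.5 in WT, with log2 ratios of 1.21 and 1.67. In cells with at least 2000 molecules its ratios were 0.53 in HET, short of 1.5-fold, and 1.11 in HOM. S100a10 was also above WT in both LayerII-IV types in both libraries, and by only 0.21 in HET and 0.02 in HOM in LayerV-VI [12-P]. The neuronal calcium sensors Vsnl1 and Hpca followed in HET: Vsnl1 was at 91.5 in HET, 108 in HOM and 45.5 in WT, and Hpca at 105, 174 and 56.2. Both were past 1.5-fold in HET and in HOM. Other genes high in HET were the ubiquitin-conjugating enzyme gene Ube2a (77.8 in HET, 42.2 in WT), the disulfide isomerase gene Pdia6 (268 in HET, 150 in WT), the carbonyl reductase gene Cbr1 (89.8 in HET, 50.2 in WT) and the glutathione transferase gene Mgst3 (269 in HET, 155 in WT). The HET log2 ratio of Mgst3 was 0.44, short of 1.5-fold, in cells with at least 2000 molecules.

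In HOM the ion channel and redox protein gene Clic1 had the highest ratio, with a level of 99.4 in HOM and 23.4 in WT. Ppp1r1b came next and was the more abundant: 297 in HET, 630 in HOM and 177 in WT, with log2 ratios of 0.75 and 1.83. It was found in 21.9% of HET, 37.2% of HOM and 14.96% of WT cells of LayerV-VI [18-P], and in 0.72%, 3.76% and 0.81% of microglia. DARPP-32 is best known from striatal neurons, yet LayerV-VI [18-P] had the highest level of it among the types compared in all 3 libraries. The LayerV-VI [12-P] ratio in HOM ran the other way, with 44.0 in HOM and 98.4 in WT on 29 and 32 summed counts. Within Leiden cluster 7 the level was 1119 in HOM and 333.5 in WT.

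Npy, which encodes neuropeptide Y, was at 583 in HET, 1163 in HOM and 459 in WT cells, a log2 ratio of 0.34 in HET and 1.34 in HOM. It was found in 18.5% of HET, 32.8% of HOM and 18.6% of WT cells, and in 16.2%, 17.3% and 13.4% of microglia, so that its presence in single cells of HET and WT was close to background. LayerII-IV [4-P] cells moved with it, at 721 in HET, 1878 in HOM and 713 in WT. Cck was at 150 in HET, 271.5 in HOM and 112.5 in WT, and Nxph4 at 58.0, 114 and 42.2. Npy was above WT in HOM in each of the 4 large Leiden clusters, at 1165 against 312 in cluster 7 and at 2130 against 977 in cluster 9. The GABAergic interneuron list, to which Npy belongs, summed to 783 in HET, 1325 in HOM and 673 in WT, and Npy was its only member with enough counts to be compared. The part that free RNA or interneurons had in the Npy values was not tested.

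Among the lowest genes, Nts, which encodes neurotensin, was at 64.1 in HET, 29.2 in HOM and 128.5 in WT cells, with log2 ratios of -1.004 and -2.14. It was found in 1.98% of HET, 1.10% of HOM and 2.52% of WT cells, and in 1.08%, 0.29% and 0.81% of microglia. Nts came from few cells, and its place differed: cluster 7 had 77.1 in HET, 12.3 in HOM and 176 in WT, whereas cluster 9 had 43.2, 129 and 197. Scn3a, a sodium channel gene of immature neurons, was at 74.5 in HET, 78.0 in HOM and 141 in WT, with log2 ratios of -0.92 and -0.85. The perineuronal proteoglycan gene Ncan was at 145, 148 and 269. Pcdh17, a protocadherin, was at 75.6 in HET, 45.2 in HOM and 112.5 in WT, a log2 ratio of -1.31 in HOM, and its HOM ratio was -1.23 or lower in each of the other 3 layer types. Lmo3, a LIM-only cofactor, was at 145 in HET, 78.6 in HOM and 170 in WT, and Nrip1, a nuclear receptor corepressor, at 80.5, 47.0 and 120. AC149090.1 and Gm26917 stood lowest or near it in both libraries, at 101 and 85.4 in HET, 103 and 93.5 in HOM and 321 and 254 in WT. The ribosomal RNA-like Gm42418, kept out of the ranking, ran with them at 15040 in HET, 16090 in HOM and 29940 in WT. Their shared part in a library-wide difference was not tested.

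**Figure D3:**
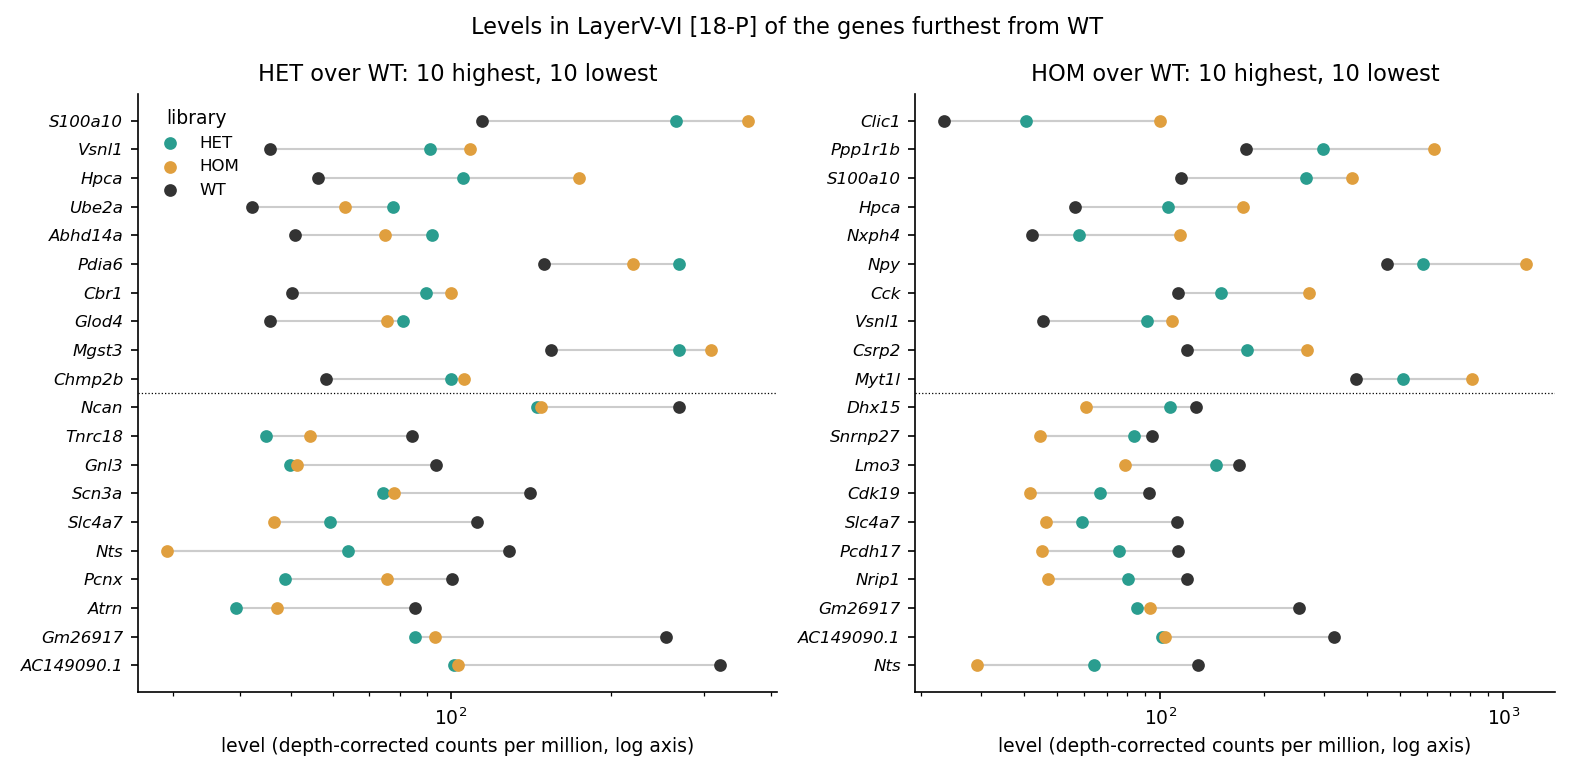
Levels in LayerV-VI [18-P] (depth-corrected counts per 1000000, log axis) of the 10 genes furthest above and the 10 furthest below WT in HET (left) and in HOM (right), with a point for each library and a line over their range. HET lies between HOM and WT for most of the genes at the right, and Nts is at 29.2 in HOM, 64.1 in HET and 128.5 in WT.

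Counts of list members past 1.5-fold are read beside the shares over all genes, 2.22% above and 3.57% below WT in HET and 5.72% and 6.8% in HOM. Of 11 layer VI genes compared in HET, 1 was past 1.5-fold above WT and 0 below, with a median log2 ratio of -0.15 beside 0.01 over all genes. In HOM 2 of 11 were past 1.5-fold above and 0 below, with a median of 0.23 beside 0.03. The gene past 1.5-fold in both was Syt6 (log2 0.59 in HET and 0.94 in HOM), and Foxp2 joined it in HOM with 0.60. Neither HOM rise was shared by every Leiden cluster. Foxp2 was above WT in clusters 7 and 1 and below it in clusters 9 and 3. Syt6 was above WT in clusters 7, 1 and 3 and below it in cluster 9. The part of the cluster shares in these ratios was not tested. Of 7 layer V genes, S100a10 was past 1.5-fold above WT in HET, and S100a10 and Pcp4 in HOM. Pcp4, a calmodulin regulator of layer V, was at 199 in HET, 298 in HOM and 157 in WT. Fezf2 had log2 ratios of 0.14 in HET and 0.52 in HOM, Bcl11b of -0.26 and -0.16, and Tle4 of -0.15 and -0.33, none of them past 1.5-fold. Of 8 callosal and upper-layer genes compared, 0 were past 1.5-fold in either library, with medians of -0.19 and -0.33. Mef2c, a factor of maturing cortical neurons, had the lowest of them in HOM at -0.57. The glutamatergic factors Neurod2 (443 in HET, 667.5 in HOM, 428 in WT) and Emx1 (54.8, 90.5 and 44.2) were past 1.5-fold above WT in HOM, while Neurod6 was at 496, 499.6 and 499.4.

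Some of these genes had lower HOM ratios in the other layer types. Tle4 in HOM had a log2 ratio to WT of -0.33 in LayerV-VI [18-P], against -1.94 in LayerV-VI [12-P], -0.80 in LayerII-IV [1-P] and -1.05 in LayerII-IV [4-P]. Nfia, another nuclear factor I gene, had 0.23, against -2.02, -0.88 and -1.10, and its relative Nfib 0.03, against -1.27, -0.38 and -0.68. Tbr1 had -0.07, against -0.71, -0.60 and -0.53. Other genes did not follow in every type. Rprm had 0.37, against 0.74, -0.04 and -0.23, and Bcl11b -0.16, against 0.03, -0.003 and -0.74. The LayerV-VI [12-P] values of Tle4 and Nfia rest on 19 and 17 summed counts in HOM and 36 and 34 in WT. Among LayerV-VI [18-P] cells of cluster 9, Tle4 was at 110 in HOM and 344 in WT, so the small ratio of the whole type was not shared by every cluster. Whether the types differ in their response could not be tested with 1 library per genotype, and all 4 ratios share the WT library.

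**Figure D4:**
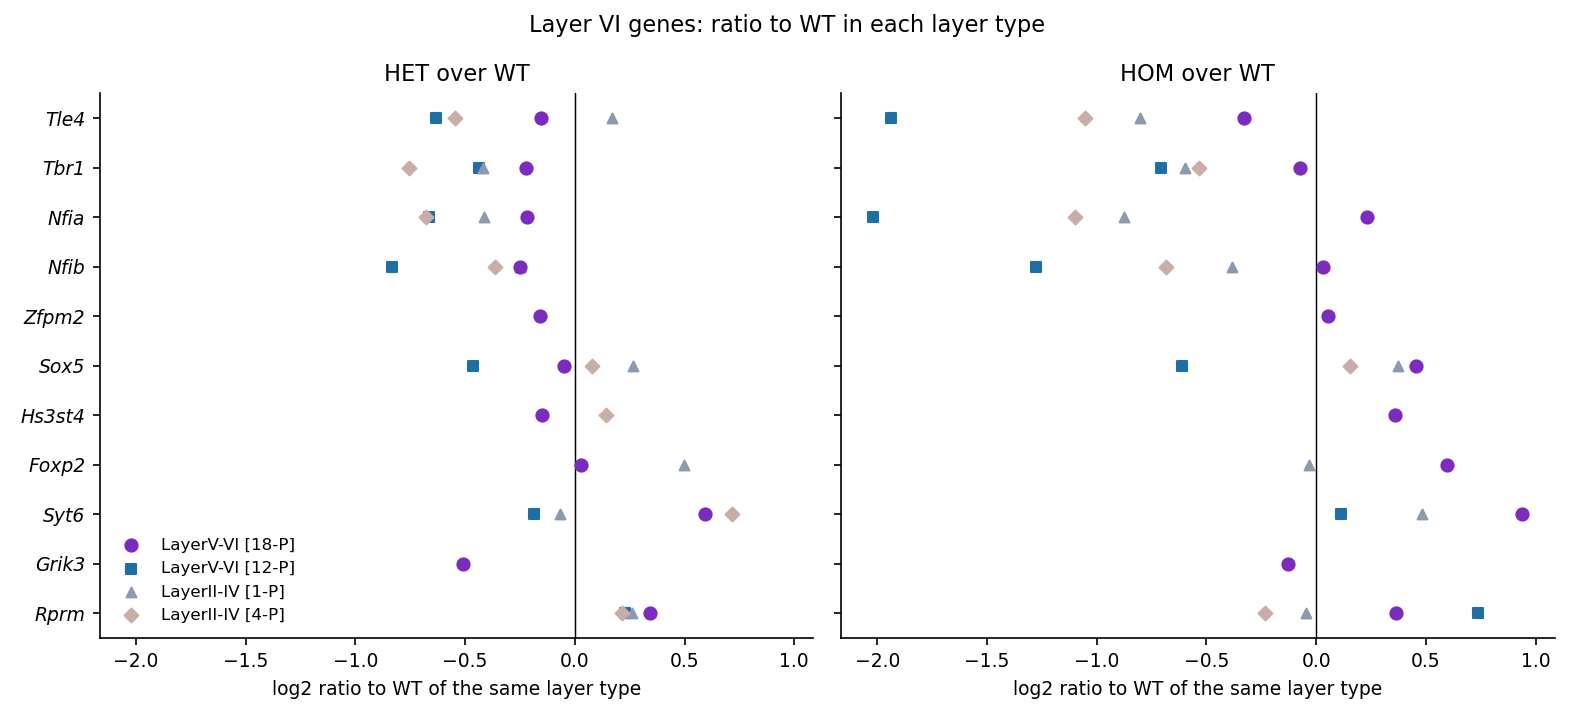
Log2 ratio to WT of 11 layer VI genes in HET (left) and HOM (right), with a marker for each layer type and no marker where the summed counts of the 2 libraries were under 50. In HOM the 18-P circles of Tle4, Tbr1, Nfia and Nfib lie to the right of the markers of the other 3 types, at -0.33, -0.07, 0.23 and 0.03.

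Over all genes compared, ratios to WT went with transcript length. Of the 718 genes in HET and 687 in HOM with the shortest transcripts, 80.8% and 83.0% were above WT, and of the 718 and 686 with the longest 20.2% and 23.0%. The part of length in the list values below was not tested. Glycolysis and hypoxia genes had a median log2 ratio of 0.35 in HET and 0.60 in HOM over 14 genes compared, with 2 past 1.5-fold above WT in HET (2.22% of all genes), 7 in HOM (5.72% of all genes) and 0 below in either. Ldha, lactate dehydrogenase A, was at 365 in HET, 496 in HOM and 242 in WT, Gpi1, glucose-6-phosphate isomerase, at 109, 153 and 74.3, and Gapdh at 839, 1123 and 699.5. Ldha was found in 29.4% of HET, 37.0% of HOM and 20.5% of WT cells of LayerV-VI [18-P], and in 33.1%, 34.7% and 35.6% of microglia. Hk1, a hexokinase gene of the same list, went against it with -0.30 and -0.33.

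Respiratory chain genes encoded in the nucleus had medians of 0.26 and 0.36 over 32 genes. In HET 0 were past 1.5-fold in either direction, and in HOM 4 were above WT (Ndufc1, Ndufs6, Ndufs5 and Cox8a) and 1 below (Atp5k), beside 5.72% and 6.8% of all genes. The mitochondrially encoded genes ran the other way in HOM, where all 11 genes of the ribosomal RNA-like and mitochondrial list were below WT, with mt-Nd1 at 6185 in HET, 3845 in HOM and 6391 in WT. Tubulins, actins and thymosins, the proteins of the growing cytoskeleton, had medians of 0.31 and 0.33, and all 14 were above WT in HET. The 2 past 1.5-fold in HOM were Tubb3 (2956 in HET, 3310 in HOM, 2072 in WT) and Tubb2a (2356, 2410 and 1587). Among 17 genes of newborn neurons the stathmins Stmn1 to Stmn4 were above WT by 0.39 to 0.64, whereas Sox4, Sox11 and Basp1 were below in both libraries. The 45 cytosolic ribosomal protein genes had medians of 0.01 and 0.16, and Rps29 at 1784 in HET, 1163 in HOM and 2032 in WT was the only one past 1.5-fold.

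Adhesion and excitability genes had medians below 0, and their counts stand beside 3.57% of all genes below WT in HET and 6.8% in HOM. The 17 axon guidance genes compared in HET had a median of -0.25, with 2 past 1.5-fold below WT, Nfasc (58.0 in HET, 93.7 in WT) and the semaphorin receptor Plxna2 (167 in HET, 258 in WT). In HOM 13 were compared, with a median of -0.13, and Cntn2, the adhesion molecule TAG-1 of growing axons, was past 1.5-fold above WT at 146 in HET, 323 in HOM and 175 in WT. Cntn2 was found in 13.5% of HET, 25.2% of HOM and 14.9% of WT cells, and in 3.24%, 3.18% and 1.62% of microglia. Cadherins and protocadherins had medians of -0.20 and -0.29. Celsr2 (84.3 in HET, 89.3 in HOM, 139 in WT) and Pcdh9 (148, 140 and 234) were past 1.5-fold below WT in both libraries. Of 19 synapse genes, Nlgn1 was past 1.5-fold below in HET, and Shank1 and Pclo in HOM, with medians of -0.16 and -0.23. The 7 voltage-gated channel genes had medians of -0.28 and -0.43, and 1 in HET and 3 in HOM were past 1.5-fold below, with Scn3a and Cacna2d1 (124 in HET, 95.9 in HOM, 144 in WT) among those in HOM. Glutamate and GABA receptor genes had 0 of 12 past 1.5-fold in either direction in both libraries, with medians of -0.17 and -0.21. The 8 SIN3, HDAC and REST corepressor genes had medians of 0.01 and -0.11, and Kdm1a, a histone demethylase gene, was past 1.5-fold below WT in HET only by a narrow margin, at 71.7 in HET, 78.0 in HOM and 108 in WT.

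**Figure D5:**
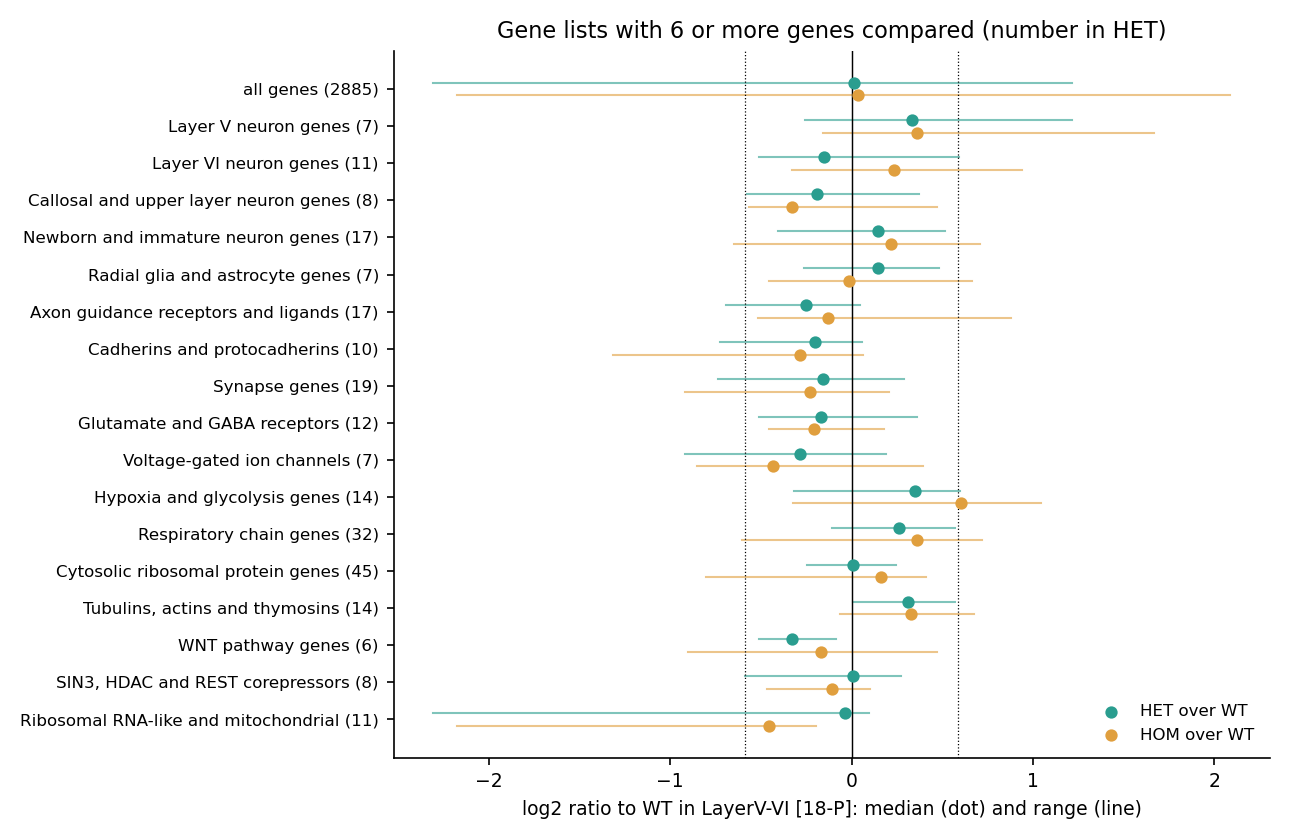
Median (dot) and range (line) of the log2 ratios to WT in LayerV-VI [18-P] for each gene list with 6 or more genes compared, in HET and in HOM, with the number compared in HET beside the name. Dotted lines mark 1.5-fold, and the glycolysis list has the highest medians, 0.35 in HET and 0.60 in HOM.

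Some genes departed from the other layer types in their ratio to WT. Prkar2b, a regulatory subunit of protein kinase A, was at 591 in HET, 965 in HOM and 473 in WT cells, and its HOM log2 ratio of 1.03 exceeded the mean of the other layer types by 0.88. Nfib exceeded that mean by 0.81 in HOM. Npy exceeded it by 0.71, but its HOM ratio of 1.34 was below the 1.40 of LayerII-IV [4-P]. In HET, Edf1, a transcriptional coactivator gene, was at 276 in HET and 163 in WT and exceeded the mean by 0.54. In the other direction stood Apbb2, an amyloid precursor binding protein, at 48.7 in HET, 37.5 in HOM and 77.0 in WT, whose difference was -0.72 in HET and -1.10 in HOM, and Scn3a with -0.65 in HET. Limch1 was at 47.7, 28.6 and 71.0, with -1.57 in HOM. These differences were not tested.

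Transcripts of other tissues also varied between libraries in these cells. The 5 red blood cell genes summed to 1157 in HET, 2340 in HOM and 1588 in WT. Among meningeal genes Ptgds, prostaglandin D synthase, was at 1.64 in HET, 88.7 in HOM and 0.67 in WT, and reached 18020 in Endothelial2 [21-P] of the HOM library. The radial glia and astrocyte gene Fabp7 was at 1323 in HET, 1504 in HOM and 949 in WT, and its level was higher in cluster 1, the shallowest of the 4, than in cluster 7 in all 3 libraries. Xist was at 0 in both mutant libraries and at 435 in WT. The share of free RNA in the levels above was not estimated, and its part in the differences was not tested.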

How the data were processed

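Single-cell RNA-seq was run on 3 libraries, HET, HOM and WT, of 2 pooled animals each, deposited as 12 samples. Per the submitters' notes, Cell Ranger 4.0.0, the mm10 genome and Seurat 4.0 were used. The authors kept cells with 200 to 4000 genes and less than 15% mitochondrial reads, and transferred cell type names from an atlas. The deposited gene table holds 18879 genes as a score: whole numbers corrected for depth by the authors, whose total per cell spans 825 to 1952 while the molecule count per cell in the deposited metadata spans 499 to 17602. They are not raw counts, so no count model was fitted. The deposited metadata give the mitochondrial share as a percent and the transfer probability as a fraction. Further deposited tables of the authors' own comparisons (log2 fold changes, p-values and shares) were not used.

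Values of the 4427 cells were summed per library and expressed per 1000000 of all genes. A gene was compared with WT where its sum over both libraries was at least 200, and counted past 1.5-fold, with no test. Named genes were the MYT1 family, the 3 markers, list members, the 10 highest and 10 lowest ratios to WT with the same sign in cells of at least 2000 molecules, the 15 highest and 10 lowest against the other layer types, and the 5 largest differences either way from the mean ratio of those types. Sex-linked, haemoglobin, ribosomal RNA-like and mitochondrial genes were left out of the ranking. The members, lists and rules were chosen with earlier results of these data known. Shares have exact Clopper-Pearson 95% intervals, for counting error only. Positions and transcript lengths came from the GENCODE annotation of GRCm38. Alternatives covered the minimum sum, scaling, depth, transfer probability, Y-linked cells and, added after seeing the data, Leiden cluster 7 alone and the rest. Scripts used Python 3.11.15, numpy 2.4.6, scipy 1.17.1 and pandas 2.3.3, and were tested on simulated data. No doublet caller was run. The sources used here do not say whether doublets had been removed. Some genes are not reported here.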

Additional observations from a re-analysis of the deposited data

How the results depend on the processing

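Counts of genes past 1.5-fold moved with the settings. The number of genes compared, 2885 in HET and 2763 in HOM, also moved with the minimum sum and with the cells kept. With a minimum sum of 50 the counts were 303 above and 867 below WT of 7576 genes in HET, and 486 and 1176 of 7364 in HOM. With 500 they were 18 and 17 of 1130 in HET and 79 and 29 of 1090 in HOM. Median-of-ratios scaling gave 116 above and 63 below in HET, which turned the balance of that comparison, and a total without technical genes gave 42 above in HET. Cells with at least 2000 molecules gave 65 above and 16 below of 587 genes in HET, and 158 and 30 of 725 in HOM. Cells with 1000 to 4000 molecules gave 52 and 38 of 1139 in HET, and 97 and 55 of 1025 in HOM. Cells with a Y-linked transcript gave 22 above and 6 below in HET and 47 and 2 in HOM over 183 genes. Leiden cluster 7 alone gave 46 above and 24 below of 1184 genes in HET, and 141 and 64 of 1268 in HOM. The other cells of the type gave 45 and 57 of 1708 in HET, and 113 and 99 of 1476 in HOM. Genes above WT made up 65.7% of those past 1.5-fold in HET and 68.8% in HOM in cluster 7, and 44.1% and 53.3% in the other cells.

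The log2 ratio of the share to WT moved to 0.20 in HET and -0.028 in HOM with cells of at least 1000 molecules, to 0.51 and 0.40 with at least 2000, to 0.14 and -0.10 when joined with LayerV-VI [12-P], and to 0.90 and 0.69 when Y-linked cells alone were kept. Among the 4 layer types it was -0.019 in HOM. The least ratio of Kit to the other layer types was -0.050 in deep cells. The causes were not tested. No paired analysis was possible because each genotype has 1 library and no table links cells to animals.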
